A study of Mus musculus with 22 samples.

Results

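Open chromatin of the hippocampus was set against that of the frontal cortex in mice that had received saline as the last challenge, using the peak lists of 4 OMNI-ATAC-seq libraries out of 22 in the series. The 2 hippocampus libraries and the 2 frontal cortex libraries were chosen by their labels, and they came from the same 2 animals, numbered 2 and 3 in the library names. The animals were C57BL/6J males, adult, used to model Gulf War Illness. They drank corticosterone (CORT) for 7 days, were injected with the organophosphate diisopropyl fluorophosphate (DFP) on day 8, had further intermittent CORT over 5 weeks and were then given saline or lipopolysaccharide (LPS). Saline tissue was collected at 6 h. The 9 LPS animals, with 3 each at 6, 12 and 24 h, had the same CORT and DFP exposure and gave 18 libraries from the same 2 tissues. They served as other animals in which to look up the tissue difference, and their libraries also entered the windows and the estimate of spread behind the gene tests. With the 4 saline libraries alone, the gene calls given later fell to 226 higher and 232 lower in hippocampus. CORT and DFP were thus shared by both tissues and by all animals, and an animal without them was not analysed here.

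OMNI-ATAC-seq uses a transposase to cut DNA that is not wrapped in nucleosomes, so peaks mark promoters and distal regulatory elements in use. The hippocampus and the neocortex both hold excitatory and inhibitory neurons and glia, but their excitatory neurons are different types. Dentate granule and CA pyramidal neurons of the hippocampus are known for transcription factors such as Prox1 and Zbtb20, and neocortical neurons for layer factors such as Rorb and Cux1. In bulk tissue, fewer cells of a type and less accessible chromatin per cell cannot be told apart.

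The sequences shown first are gene starts that carried a tissue difference in both saline animals, with 1 start that was open in both tissues for comparison. A start was taken as the 300 bases around the start site in the RefSeq promoter table of GRCm38.p6, which holds 21262 starts of 17491 genes. It counted as open in hippocampus alone where a peak overlapped it in both hippocampus libraries and no frontal cortex peak touched it, and the other way round for frontal cortex. Tdo2 (chr3:81975679-81975978, minus strand) encodes tryptophan dioxygenase and is a granule cell marker, Lhx9 (chr1:138842395-138842694, minus strand) encodes a LIM homeobox factor of the developing brain, and Nhlh2 (chr3:102009895-102010194, plus strand) a neuronal helix-loop-helix factor. All 3 were open in hippocampus alone. Sphk1 (chr11:116531587-116531886, plus strand), the gene of a sphingosine kinase, Rap1gap2 (chr11:74558978-74559277, minus strand), a regulator of the small GTPase Rap1, and Tnip3 (chr6:65590148-65590447, plus strand), an inhibitor of NF-kB signalling, were open in frontal cortex alone. The Prox1 start (chr1:190170778-190171077, minus strand) was open in all 4 libraries. Capitals mark matches on either strand to TATAAA (the TATA box), CCAAT (read by NF-Y), GGGCGG (the GC box read by Sp1) or TGANTCA (the core pattern of AP-1 factors), and no one of these motifs contains another.
Tdo2: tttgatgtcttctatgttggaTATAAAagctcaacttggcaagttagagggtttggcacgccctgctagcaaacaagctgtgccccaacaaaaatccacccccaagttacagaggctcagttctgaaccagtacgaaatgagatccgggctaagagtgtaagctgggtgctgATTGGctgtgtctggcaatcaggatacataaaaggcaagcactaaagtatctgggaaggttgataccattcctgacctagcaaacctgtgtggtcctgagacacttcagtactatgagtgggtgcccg
Lhx9: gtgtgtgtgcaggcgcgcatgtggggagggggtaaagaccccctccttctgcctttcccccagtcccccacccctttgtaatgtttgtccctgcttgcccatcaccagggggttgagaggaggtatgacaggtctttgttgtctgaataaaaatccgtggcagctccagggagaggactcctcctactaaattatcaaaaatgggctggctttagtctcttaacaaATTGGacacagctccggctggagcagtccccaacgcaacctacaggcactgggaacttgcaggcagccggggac
Nhlh2: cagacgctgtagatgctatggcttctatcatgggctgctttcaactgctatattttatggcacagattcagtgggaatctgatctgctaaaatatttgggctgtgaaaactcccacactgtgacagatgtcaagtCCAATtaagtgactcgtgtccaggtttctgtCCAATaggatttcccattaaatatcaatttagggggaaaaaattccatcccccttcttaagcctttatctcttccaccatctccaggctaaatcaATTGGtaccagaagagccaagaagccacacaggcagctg
Sphk1: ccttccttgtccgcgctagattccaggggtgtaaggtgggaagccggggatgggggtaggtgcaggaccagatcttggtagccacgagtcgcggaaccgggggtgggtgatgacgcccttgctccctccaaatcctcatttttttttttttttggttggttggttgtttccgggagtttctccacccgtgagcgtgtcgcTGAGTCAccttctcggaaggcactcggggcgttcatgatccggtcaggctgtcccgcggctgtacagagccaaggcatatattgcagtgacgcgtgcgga
Rap1gap2: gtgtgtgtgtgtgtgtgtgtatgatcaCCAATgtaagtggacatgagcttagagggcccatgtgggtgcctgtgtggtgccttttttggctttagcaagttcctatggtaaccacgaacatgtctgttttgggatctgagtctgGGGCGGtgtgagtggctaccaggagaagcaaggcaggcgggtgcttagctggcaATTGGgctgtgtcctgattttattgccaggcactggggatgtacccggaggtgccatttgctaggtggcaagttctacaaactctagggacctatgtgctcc
Tnip3: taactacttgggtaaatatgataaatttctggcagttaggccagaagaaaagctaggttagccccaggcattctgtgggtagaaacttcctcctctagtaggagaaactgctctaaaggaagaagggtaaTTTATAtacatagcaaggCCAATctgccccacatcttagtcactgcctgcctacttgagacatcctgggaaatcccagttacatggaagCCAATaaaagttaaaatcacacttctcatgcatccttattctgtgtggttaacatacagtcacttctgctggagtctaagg
Prox1: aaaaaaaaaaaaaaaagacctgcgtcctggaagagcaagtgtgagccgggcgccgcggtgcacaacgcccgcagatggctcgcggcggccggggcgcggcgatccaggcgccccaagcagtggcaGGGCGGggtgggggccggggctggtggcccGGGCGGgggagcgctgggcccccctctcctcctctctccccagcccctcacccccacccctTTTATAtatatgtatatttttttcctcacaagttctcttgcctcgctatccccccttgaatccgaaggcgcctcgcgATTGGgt

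Few starts differed in this way. Of the 21262 starts, 119 (0.56%) were open in hippocampus alone and 69 (0.325%) in frontal cortex alone, while 11748 (55.3%) were open in all 4 libraries and 7168 (33.7%) in none. Which tissue had more depended on the number of peaks used. With the 150000 strongest peaks of each library there were 81 hippocampus starts and 145 frontal cortex starts, and with the 50000 strongest 91 and 139. Starts open in 1 tissue, like other starts open in only some libraries, held fewer CpG in the median than those open throughout. Their median number of CpG was 4 in 300 bases for hippocampus alone and 6 for frontal cortex alone, against 22 for starts open in all 4 libraries, and the median GC content was 50.0%, 54.3% and 62.3%. Starts open in some libraries without a tissue pattern had a median of 7.5 CpG and 54.3% GC, and all starts 13 CpG. The Tnip3 start holds 0 CpG, those of Tdo2 and Rap1gap2 hold 4 each, and the Prox1 start holds 25. The Sphk1 start is an exception among the sequences shown, with 21. The GC box stood in 23 of 119 hippocampus starts (19.3%), in 21 of 69 frontal cortex starts (30.4%), in 68.5% of starts open in all 4 libraries and in 46.2% of all starts. The AP-1 pattern stood in 8 of the 119 (6.72%), in 14 of the 69 (20.3%) and in 6.99% of all starts, and the 14 include 2 overlapping start windows of Sphk1. CCAAT stood in 42.0% of the hippocampus starts, 23.2% of the frontal cortex starts and 38.2% of all starts, and TATAAA in 12.6%, 17.4% and 12.6%. Starts open in some libraries without a tissue pattern held the GC box in 37.4% and the AP-1 pattern in 9.5%. They held CCAAT in 29.8% and TATAAA in 11.7%. These 4 motifs are given out of 9 searched, chosen after their counts were seen, and a match is a description of letters.

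The starts were then looked up in the LPS animals, whose values were not used to define the 119 and 69 starts. Every call there had the direction of the saline animals. Of the 119 starts open in hippocampus alone, 108 varied enough among the 18 LPS libraries to be tested, and 39 of them were more often open in hippocampus and 0 more often in frontal cortex (Fisher's exact test, two-sided, Benjamini-Hochberg adjusted p under 0.05). Over all 2019 starts tested, the calls were 3.42% for hippocampus and 2.48% for frontal cortex. Of the 69 starts open in frontal cortex alone, 61 were tested, with 0 called for hippocampus and 21 for frontal cortex. The single starts named here were chosen after their values were seen, so their p-values are a description. The starts of Tdo2, Lhx9 and Nhlh2 were open in 9 of 9 LPS hippocampus libraries and 0 of 9 LPS frontal cortex libraries (adjusted p = 0.0018 for each, exact test). Those of Sphk1, Rap1gap2 and Tnip3 were open in 0 of 9 hippocampus and 9 of 9 frontal cortex libraries, and so was that of Il12b, which encodes a subunit of the cytokines interleukin 12 and 23. The Gfap start, at the gene of the astrocyte filament protein, was open in 7 hippocampus and 0 frontal cortex libraries (adjusted p = 0.0384, exact test). Of the starts tested, 69 of the 108 for hippocampus and 40 of the 61 for frontal cortex were not called, and 3 of these, chosen after their values were seen, follow. The start of Nfix, a nuclear factor I gene, open in saline hippocampus alone, was open in 9 hippocampus and 7 frontal cortex libraries after LPS. The start of Gjb6, an astrocyte connexin gene, was open in saline frontal cortex alone, but after LPS in 5 hippocampus libraries and 1 frontal cortex library. The start of Cacng5, a CA marker in the hippocampal list, was open in frontal cortex alone in saline animals and in 0 hippocampus and 6 frontal cortex libraries after LPS (adjusted p = 0.11, exact test).

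The libraries differed in how many peaks they held, which bears on every count of presence. Hippocampus had 307140 distinct peak intervals in animal 2 and 250762 in animal 3, and frontal cortex had 265193 in animal 2 and 219334 in animal 3. Animal 2 thus had more intervals than animal 3 in each tissue, and hippocampus had more than frontal cortex in each animal. The intervals covered 113 and 88.6 Mb in hippocampus, and 106 and 85.7 Mb in frontal cortex. Peaks were reduced to windows of equal length around their summits, and a library counted as having a window if one of its peaks covered at least 50% of the shorter of both. Libraries of a tissue shared more windows with each other than with the other tissue of the same animal. The shared part of the union was 64.2% between the 2 hippocampus libraries and 63.5% between the 2 frontal cortex libraries, against 53.0% between the tissues of animal 2 and 48.2% between those of animal 3. With the 150000 strongest peaks of each library, these shares were 67.9%, 67.9%, 51.0% and 48.2%. With 2 libraries against 2, an exact permutation test has 6 splits and a smallest two-sided p of 0.333, so these are given without a test.

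Of 416293 windows with a peak in any saline library, 137677 (33.1%) had one in all 4. A peak in both hippocampus libraries and no frontal cortex library was found at 49054 windows (11.8%), and in both frontal cortex libraries and no hippocampus library at 26861 (6.45%). A further 121011 windows (29.1%) were present in 1 library alone. The number of hippocampus windows moved with the number of peaks used. With the 150000 strongest peaks of each library there were 27795 hippocampus windows and 27772 frontal cortex windows, and with the 50000 strongest 10236 and 11330. Hippocampus windows made up between 9.89% (chromosome 11) and 14.2% (chromosome X) of the windows of each autosome and chromosome X, and frontal cortex windows between 5.62% (chromosome 11) and 7.64% (chromosome X).

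The same windows were then looked up in the LPS animals. Windows open in saline hippocampus alone had a peak in 79.7% ± 6.49 of cases in LPS hippocampus and 12.1% ± 5.497 in LPS frontal cortex (SD, n = 9 libraries each), with the hippocampus higher in 9 of 9 animals. Windows open in saline frontal cortex alone had a peak in 13.7% ± 3.65 of cases in LPS hippocampus and 81.9% ± 4.64 in LPS frontal cortex (SD, n = 9 each), with the hippocampus higher in 0 of 9 animals. In both classes the ranges of the 2 tissues lay far apart, from 68.7% to 87.1% against 5.01% to 20.1% for hippocampus windows, and from 8.42% to 18.03% against 72.9% to 89.1% for frontal cortex windows. Per window, 30291 of 46925 tested hippocampus windows (64.6%) had a peak more often in hippocampus and 12 more often in frontal cortex, by a two-sided exact test of 9 against 9 libraries (Fisher, Benjamini-Hochberg). Of 25706 tested frontal cortex windows 4 had a peak more often in hippocampus and 16936 (65.9%) more often in frontal cortex. Over all 295006 windows tested in the LPS animals, the calls were 16.1% for hippocampus and 11% for frontal cortex. With the animal as the replicate block (exact sign test over 9 animals), the calls came to 13815 hippocampus windows and 7662 frontal cortex windows, those with a peak in all 9 libraries of the tissue and none of the other. Windows seen in 1 saline library alone were called in 11.2% of tested cases for hippocampus and 8.96% for frontal cortex.

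**Figure D1:**
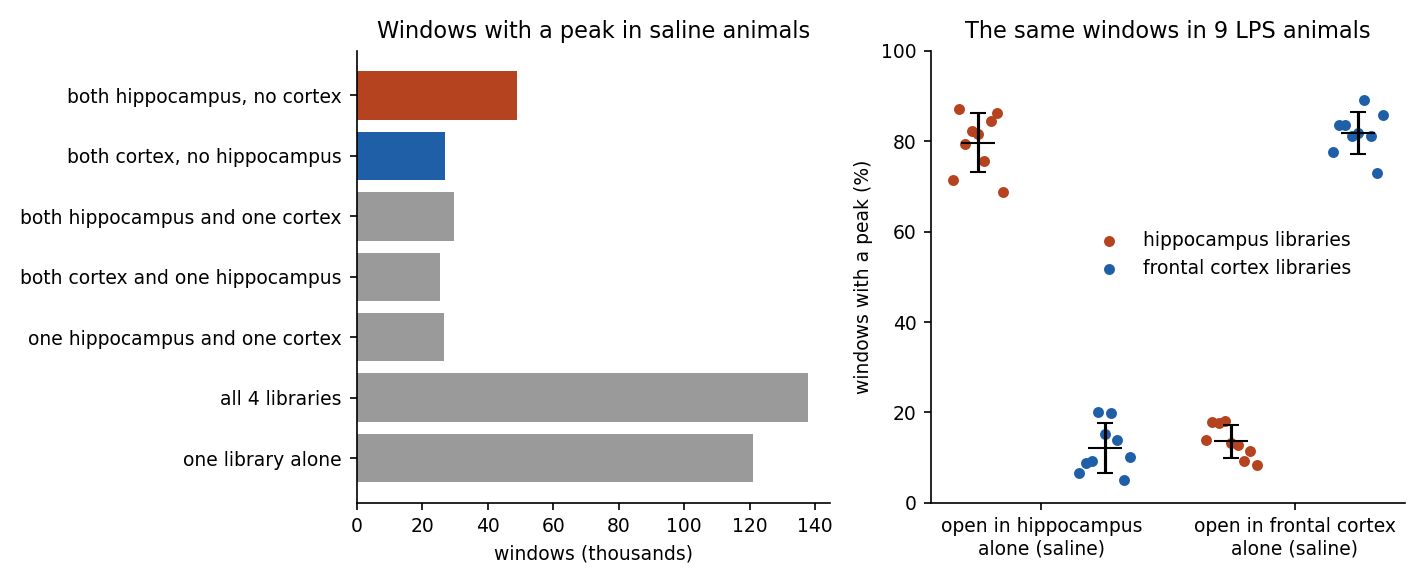
Left, number of windows by the saline libraries in which they had a peak; right, percentage of the windows open in 1 saline tissue that had a peak in each of the 18 LPS libraries (points), with mean and SD (black). Hippocampus windows were present in 79.7% on average in LPS hippocampus against 12.1% in LPS frontal cortex, and frontal cortex windows in 13.7% against 81.9%.

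Windows open in 1 tissue lay far from gene starts. Within 1 kb of a start lay 0.980% of the hippocampus windows, 2.51% of the frontal cortex windows and 11.9% of the windows present in all 4 libraries. The median distances to a start were 85.8 kb, 76.9 kb and 42.9 kb, and 50.5%, 54.0% and 57.5% lay within a gene body. The share of windows that differed again moved with peak strength. Peaks were ranked within each library by the authors' -log10 p, and a window was placed by its weaker library. In rank percentiles 0 to 25, 25 to 50, 50 to 75 and 75 to 100, 45.0%, 68.4%, 84.2% and 82.7% of the tested hippocampus windows were called for hippocampus in the LPS animals. For the frontal cortex windows the shares called for frontal cortex were 48.6%, 75.1%, 84.8% and 67.5%. Many windows of either class adjoined a peak of the other tissue. Of the hippocampus windows 34800 (70.9%) had no frontal cortex peak within 1 kb, and of the frontal cortex windows 15749 (58.6%) had no hippocampus peak within 1 kb. Of those tested, 67.5% and 71.6% were called in the LPS animals. For windows that touched a peak of the other tissue it was 46.3% and 36.9%.

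The 5 windows of each tissue with the strongest peaks all lay in gene bodies, and few differed again. On the hippocampus side Plag1 was called in the LPS animals (7 hippocampus libraries and 0 frontal cortex libraries), and those at Lca5, Rnmt, Klhl28 and Clptm1l were not. On the frontal cortex side Stard4 was called (0 and 6 libraries), and those at Atp7b, Stt3a, Nbeal1 and Fto were not. Among the 5 strongest within 1 kb of a start, the window at Dap, a gene tied to programmed cell death, was called for hippocampus (9 hippocampus libraries and 3 frontal cortex libraries, adjusted p = 0.0335, exact test), and 0 of 5 were called for frontal cortex. Among windows with no peak of the other tissue within 1 kb, named after their values were seen, the strongest hippocampus window lay in the body of Lingo2, a neuronal leucine-rich repeat gene (chr4:36435102-36435602, GRCm38). It had a peak in 9 of 9 LPS hippocampus libraries and 2 of 9 LPS frontal cortex libraries (adjusted p = 0.0109, exact test). A window 95024 bp from Nek7, a kinase gene (chr1:138388563-138389063), and one 41820 bp from Nsun3, an RNA methyltransferase gene (chr16:62690374-62690874), had 9 and 0. On the frontal cortex side a window 46359 bp from Dlx6, a homeobox gene of forebrain inhibitory neurons (chr6:6816725-6817225), had a peak in 2 LPS hippocampus libraries and 9 LPS frontal cortex libraries (adjusted p = 0.0109, exact test), and one 28702 bp from Mdfic (chr6:15830621-15831121) had 1 and 9.

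To describe genes, the windows with a peak in the gene body or within 10 kb of it were counted in every library. The log2 of that count (plus 0.5) per 100000 windows of the library was compared with limma, and adjusted p-values are over all 12445 genes tested. A higher value means more open sites at the gene, which is not an expression level. In saline animals 428 genes (3.44%) were higher in hippocampus than in frontal cortex and 700 (5.62%) were lower, and 3036 had an unadjusted p under 0.05. Neighbouring genes share windows, and the called genes formed 406 and 633 separate loci. Genes higher in hippocampus were long, with a median length of 118 kb, those lower in hippocampus had 57.9 kb and all tested genes 32.0 kb. The count without scaling to the number of windows was 399 higher and 44 lower, and the median difference over all genes was 0.08 without scaling and -0.09 with it, so differences are read against -0.09. With the 150000 strongest peaks of each library, 461 were higher and 742 lower with scaling, and 397 higher and 840 lower without it. The genes behind these totals differed in part. With scaling, 200 of 332 higher and 257 of 567 lower genes tested in both settings kept their call. Leaving out the libraries of animal 3 left 61 higher and 46 lower genes, of which 59 and 43 were among those called with all libraries. Leaving out 1 library at a time gave 172 higher and 150 lower genes without frontal cortex of animal 3, 186 and 273 without hippocampus of animal 3, 288 and 442 without hippocampus of animal 2, and 416 and 664 without frontal cortex of animal 2.

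Gene differences in the LPS animals came from a second limma fit, on the differences within animals. The shares called there and in saline animals are thus not like for like. In the LPS animals 1679 genes (13.5%) were higher in hippocampus and 3600 (28.9%) lower. Of the 428 genes higher in saline hippocampus 393 were called higher there too and 0 lower, and of the 700 lower genes 623 were called lower and 1 higher. The median log2 difference of the 428 genes was 0.66 in saline animals and 0.50 in LPS animals, and that of the 700 genes -0.57 and -0.37. Across the 12445 genes the saline and LPS differences had a Pearson correlation of 0.756 and a Spearman correlation of 0.693. This is a description, since the libraries come from different animals but genes that share windows are not independent.

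**Figure D2:**
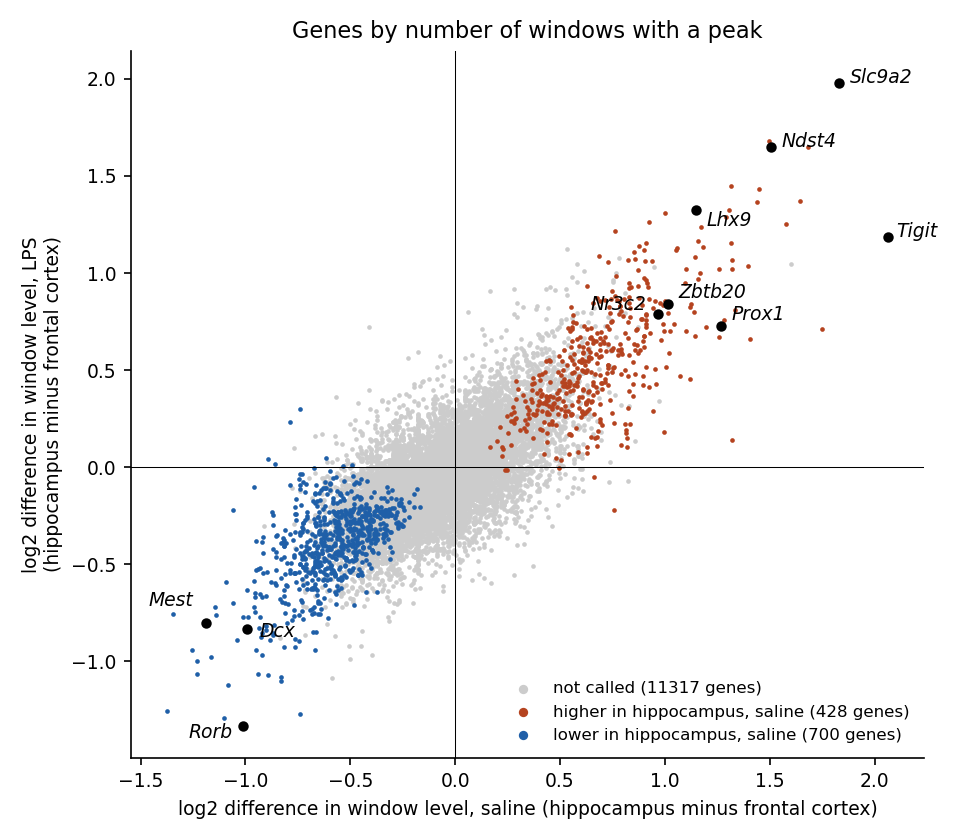
Each point is 1 of 12445 genes, with the log2 difference in windows with a peak per 100000 windows (hippocampus minus frontal cortex) in saline animals on the x axis and in LPS animals on the y axis. Red genes were higher and blue genes lower in saline hippocampus, and 423 of the 428 higher and 693 of the 700 lower genes had the same sign in LPS animals.

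Markers of hippocampal neurons were counted next, and several carried large differences. Their lists were chosen with earlier results of these data known, so the counts are a description and no check of the tissue labels. Prox1, the factor that sets and keeps granule cell identity, had 24 windows in both hippocampus libraries, and 9 and 8 windows in frontal cortex of animals 2 and 3 (log2 difference 1.27, SE 0.17, adjusted p = 1.62e-05). Both hippocampus libraries lay above both frontal cortex libraries, as was the case for 17.3% of all genes tested. Of 31 windows at Prox1 seen in any saline library, 12 were open in hippocampus alone and 0 in frontal cortex alone, and 0 of the 12 lay within 1 kb of a gene start. The Prox1 start printed above was open in all 4 libraries, and the windows that differed were distal. The strongest of the 12 lay in the gene body (chr1:190142741-190143241), with a peak in 9 of 9 LPS hippocampus libraries and 0 of 9 LPS frontal cortex libraries (adjusted p = 0.000454, exact test). In LPS animals Fisher's exact test called 7 of the 12 for hippocampus and 0 for frontal cortex, and not all 12 were tested. The sign test over animals needs a peak in 9 of 9 hippocampus and 0 of 9 frontal cortex libraries. It called 3 of the 12. Over all 49054 hippocampus windows, tested or not, the calls were 30291 and 13815, near the shares at Prox1. The gene's difference in LPS animals was 0.73 (adjusted p = 3.28e-05).

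Zbtb20, a zinc finger factor required for CA and granule neurons, had 133 and 152 windows in hippocampus and 65 and 59 in frontal cortex (log2 difference 1.02, SE 0.10, adjusted p = 1.28e-07). At Zbtb20 56 windows were open in hippocampus alone and 3 in frontal cortex alone, and 37 of the 56 were called for hippocampus in the LPS animals by Fisher's exact test and 16 by the sign test over animals. Both counts are near the shares over all 49054 hippocampus windows, tested or not, of which 30291 and 13815 were called. Nr3c2, the mineralocorticoid receptor gene, which binds corticosterone with high affinity and is abundant in hippocampal neurons, had 64 and 79 windows in hippocampus and 34 and 30 in frontal cortex (log2 difference 0.97, SE 0.13, adjusted p = 1.53e-05). At Nr3c2 25 windows were open in hippocampus alone and 3 in frontal cortex alone. In the LPS animals 13 of the 25 were called for hippocampus by Fisher's exact test and 6 by the sign test. Over all 49054 hippocampus windows, tested or not, the calls were 30291 and 13815. Tdo2, whose start is printed above, had 13 and 12 windows in hippocampus and 7 and 5 in frontal cortex (log2 difference 0.84, SE 0.17, adjusted p = 0.00194). After scaling, both hippocampus libraries lay above both frontal cortex libraries at Prox1, Zbtb20, Nr3c2 and Tdo2. This was the case for 17.3% of all genes tested. It also held for 427 of the 428 genes called higher in hippocampus, to which these genes belong, so it adds little to their calls.

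As a group, 5 of 10 tested granule cell markers were higher in hippocampus and 0 lower, where 3.44% and 5.62% of all genes were called. Their median log2 difference was 0.41 against -0.09 over all genes. The others that passed were Dsp, which encodes desmoplakin, Glis3, a zinc finger factor, and Dock10, an exchange factor of small GTPases. Only Prox1 and Tdo2 kept the call whichever single library was left out. Dsp lost it without hippocampus of animal 2 or 3 or frontal cortex of animal 3 (adjusted p = 0.0527, 0.117 and 0.122), Glis3 without hippocampus or frontal cortex of animal 3 (adjusted p = 0.46 and 0.371), and Dock10 likewise (adjusted p = 0.0742 and 0.0753). C1ql2, a synaptic organiser of granule cells, had 5 and 5 windows in hippocampus and 2 and 2 in frontal cortex, but too few windows to be tested. Of 15 tested CA pyramidal markers Zbtb20 and Nr3c2 were higher and 0 were lower (median 0.11). Wfs1, a CA1 marker, had 11 and 10 windows in hippocampus and 9 and 8 in frontal cortex (log2 difference 0.11, adjusted p = 0.746), and missed the threshold.

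**Figure D3:**
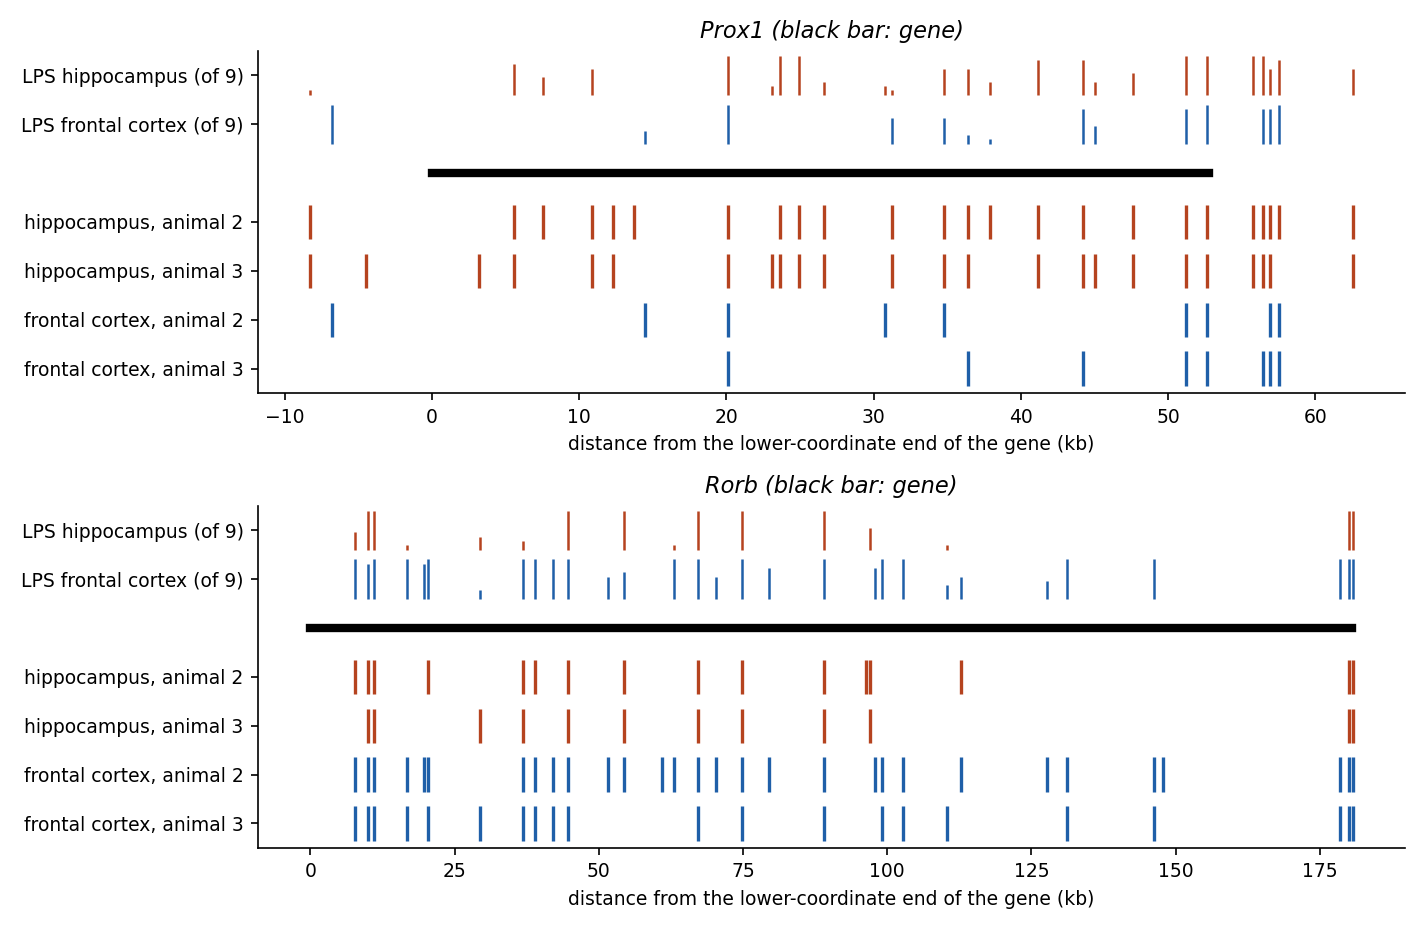
Windows with a peak at Prox1 and Rorb in the 4 saline libraries (ticks) and, above the gene bar, the number of 9 LPS libraries per tissue with a peak there (tick height), by distance from the end of the gene with the lower coordinate. At Prox1 12 windows were open in saline hippocampus alone and 0 in frontal cortex alone, and at Rorb 1 and 7.

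The largest differences towards hippocampus stood at less familiar genes. Slc9a2, a sodium-proton exchanger gene (chromosome 1, 40681712 to 40768885), had 21 and 14 windows in hippocampus and 5 and 3 in frontal cortex (log2 difference 1.83, SE 0.24, adjusted p = 1.39e-05), and the difference was 1.98 in LPS animals. Tigit, an immune receptor gene, had 14 and 13 windows in hippocampus and 3 and 2 in frontal cortex (log2 difference 2.06, adjusted p = 5.25e-06), but it shares windows with its neighbour Zbtb20. Ndst4, which encodes a heparan sulphate sulphotransferase, had 26 and 26 windows in hippocampus and 10 and 6 in frontal cortex (log2 difference 1.50, adjusted p = 1.53e-05). Slc4a7, a bicarbonate transporter gene, had 17 and 14 in hippocampus and 4 and 4 in frontal cortex (log2 difference 1.65, adjusted p = 2.24e-06). Calcrl, a receptor for adrenomedullin and CGRP, had 12 and 12 in hippocampus and 5 and 2 in frontal cortex (log2 difference 1.58, adjusted p = 0.000209). These genes were picked among those without overlap of the tissues, as found for 17.3% of all genes tested. Lrrc42, Deup1, Capsl, Mageb18 and Wdr72 complete the 10 largest, with log2 differences of 1.75, 1.68, 1.50, 1.45 and 1.44. All 10 were higher in hippocampus in 9 of 9 LPS animals. Among windows with no peak of the other tissue within 1 kb, Lsamp had the largest excess towards hippocampus. It had 52 open in hippocampus alone and 11 in frontal cortex alone. Macrod2 had 58 and 18, Rbfox1, a splicing factor gene, 41 and 7, and Ryr3, a calcium release channel gene, 27 and 0. The largest excess towards frontal cortex stood at Ptprd, with 28 and 49. These counts were not set against gene length.

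On the side of frontal cortex, layer factors of neocortical neurons were among the genes called. Rorb, an orphan nuclear receptor of cortical layer 4, had 16 and 12 windows in hippocampus and 30 and 21 in frontal cortex (log2 difference -1.01, SE 0.13, adjusted p = 7.66e-06). Both frontal cortex libraries lay above both hippocampus libraries, as was the case for 32.7% of all genes tested. At Rorb 1 window was open in hippocampus alone and 7 in frontal cortex alone. In the LPS animals all 7 were called for frontal cortex by Fisher's exact test and 6 by the sign test. Over all 26861 frontal cortex windows, tested or not, the calls were 16936 and 7662. Cux1, an upper-layer homeobox factor, had 54 and 47 in hippocampus and 72 and 60 in frontal cortex (log2 difference -0.56, adjusted p = 2.47e-05), a call that was lost with the 150000 strongest peaks of each library and without scaling. Of 26 cortical layer markers, all tested, 0 were higher in hippocampus and 6 lower (median log2 difference -0.18 against -0.09 over all genes). The shares called over all genes were 3.44% higher and 5.62% lower. Rorb and Cux1 kept the call whichever single library was left out, and Cux2, Deptor and Pou3f2 did not. Without frontal cortex of animal 3 the adjusted p was 0.0503 for Cux2, 0.188 for Deptor and 0.242 for Pou3f2. Without hippocampus of animal 3 it was 0.208, 0.104 and 0.0718, without hippocampus of animal 2 it was 0.074 for Deptor and 0.133 for Pou3f2, and without frontal cortex of animal 2 it was 0.0754 for Cux2. The deep-layer factors Tbr1 and Fezf2 had log2 differences of -0.26 (adjusted p = 0.312) and -0.49 (adjusted p = 0.0599).

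The largest differences towards frontal cortex included genes that are no layer markers. Sytl2, a synaptotagmin-like gene of vesicle traffic, had 13 and 9 windows in hippocampus and 21 and 23 in frontal cortex (log2 difference -1.17, SE 0.17, adjusted p = 2.52e-05). Gucy1a1, a subunit of the nitric oxide receptor guanylate cyclase, had 12 and 7 in hippocampus and 20 and 17 in frontal cortex (log2 difference -1.15, adjusted p = 5.58e-05). Mest, an imprinted gene, had 4 and 3 in hippocampus and 7 and 8 in frontal cortex (log2 difference -1.19, adjusted p = 0.00298), and missed the threshold without frontal cortex of animal 3 (adjusted p = 0.0935). Stradb, with 5 and 2 windows in hippocampus and 8 and 8 in frontal cortex, and Ccl27a, with 4 and 4 and with 9 and 9, had log2 differences of -1.37 and -1.26. Mc1r, Stx19, Vill and Itgad were also among the 10 largest (-1.34, -1.23, -1.14 and -1.10), and each lost its call when frontal cortex of animal 3 was left out, Mc1r, Stx19 and Vill also without hippocampus of animal 3. These small genes share windows with neighbours, Stradb with Trak2 and C2cd6, and Ccl27a with Galt and Il11ra1.

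**Figure D4:**
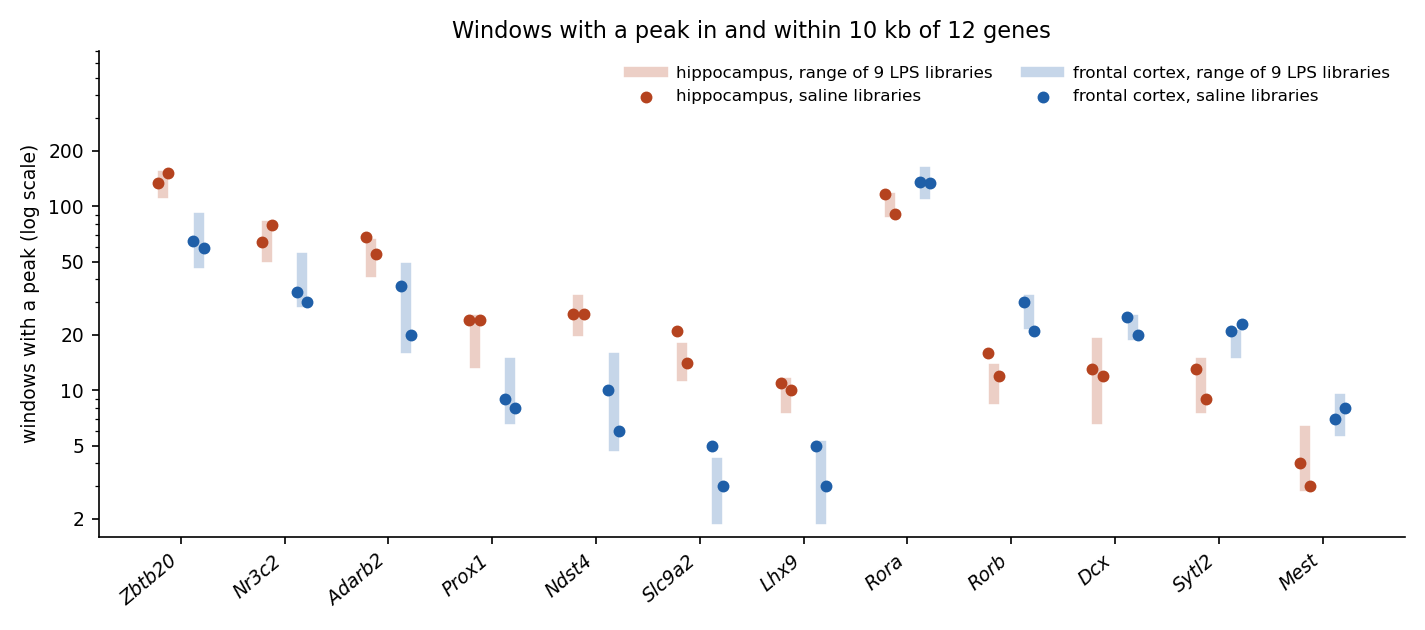
Number of windows with a peak in and within 10 kb of 12 genes (log axis) in the 2 saline libraries of each tissue (points) and the range over the 9 LPS libraries of each tissue (bars). The hippocampus points lie above the frontal cortex points for the 7 genes on the left, such as Prox1 (24 and 24 against 9 and 8), and below them for the 5 on the right, such as Rorb (16 and 12 against 30 and 21).

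Among markers of neuron classes, 3 glutamatergic and 3 GABAergic genes were called, to be read against 3.44% higher and 5.62% lower over all genes. Of 12 glutamatergic markers 1 was higher in hippocampus and 2 lower. Mef2c, an activity-dependent factor, had 35 and 34 windows in hippocampus and 50 and 43 in frontal cortex (log2 difference -0.60, SE 0.10, adjusted p = 0.000412), but not with the 150000 strongest peaks or without scaling, and the difference was 0.40 with the 50000 strongest peaks. Slc17a7 and Slc17a6, the genes of the vesicular glutamate transporters 1 and 2, moved in opposite directions, with log2 differences of -0.57 (adjusted p = 0.0105) and 0.81 (adjusted p = 0.025). Without frontal cortex of animal 3 both missed the threshold (adjusted p = 0.0553 and 0.361), as they did without hippocampus of animal 2 (0.0666 and 0.0928), and Slc17a6 missed it in LPS animals (0.22, adjusted p = 0.0797). Of 18 GABAergic markers 2 were higher in hippocampus and 1 lower (median -0.01). Adarb2, a gene of caudally derived interneurons, had 68 and 55 windows in hippocampus and 37 and 20 in frontal cortex (log2 difference 0.98, SE 0.16, adjusted p = 0.000212). Gad1, which makes GABA, was higher in hippocampus (0.59, adjusted p = 0.0431) and Slc32a1, the vesicular GABA transporter, lower (-0.61, adjusted p = 0.0492). Neither passed without frontal cortex of animal 3 (adjusted p = 0.364 and 0.0963) or hippocampus of animal 3 (0.103 and 0.364), and Slc32a1 missed the threshold with the animal as the replicate block (adjusted p = 0.0564).

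Among 20 patterning factors of the forebrain 1 was higher in hippocampus and 4 lower (median -0.18), against 3.44% and 5.62% over all genes. Lhx9, whose start is printed above, had 11 and 10 windows in hippocampus and 5 and 3 in frontal cortex (log2 difference 1.15, SE 0.22, adjusted p = 0.00118). Lhx9 is also in the list of thalamic markers, of which it was the only one called among 7, and the other 6 had log2 differences between -0.36 and 0.33. The 4 lower factors, Tshz3, Id2, Meis2 and Emx1, each lost the call without frontal cortex of animal 3 (adjusted p = 0.296, 0.374, 0.0542 and 0.244) or hippocampus of animal 3 (0.0598, 0.218, 0.298 and 0.308), and Emx1 also with the replicate block (adjusted p = 0.0506). Of 9 neurogenic niche markers 1 was called. Dcx, the microtubule protein of newborn neurons, had 13 and 12 windows in hippocampus and 25 and 20 in frontal cortex (log2 difference -0.99, SE 0.16, adjusted p = 0.000178). At Dcx 1 window was open in hippocampus alone and 9 in frontal cortex alone. In LPS animals 8 of the 9 were called for frontal cortex by Fisher's exact test and 6 by the sign test. Over all 26861 frontal cortex windows, tested or not, the calls were 16936 and 7662.

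Markers of other cell types that the dissections could hold were counted beside these, again against 3.44% higher and 5.62% lower over all genes. For the choroid plexus 2 of 6 tested markers were higher in hippocampus and 0 lower (median 0.21). Lmx1a, a homeobox factor, had 28 and 18 windows in hippocampus and 12 and 9 in frontal cortex (log2 difference 0.90, adjusted p = 7.48e-05), though not with the 150000 strongest peaks, and Prlr, the prolactin receptor, had 17 and 10 against 8 and 6 (adjusted p = 0.0161, with 0.209 without hippocampus of animal 2 and 0.134 without frontal cortex of animal 3). The defining marker Ttr had 5 and 4 windows in hippocampus and 6 and 4 in frontal cortex, and Otx2 had 0 in all 4 libraries. The summed level of the 13 choroid plexus genes was 36.3 and 33.9 windows per 100000 in hippocampus and 32.9 and 28.5 in frontal cortex. For ependymal cells 1 of 4 was higher, Ak7, which lost the call without frontal cortex of animal 3 or hippocampus of animal 2 (adjusted p = 0.337 and 0.129), and the summed level of 7 genes was 20.6 and 17.8 in hippocampus and 17.2 and 16.3 in frontal cortex. The part of these cells in the differences above was not tested. Of 10 striatal neuron markers and 12 microglia markers 0 were called by limma, as of 3 meningeal markers, and 1, 1 and 0 had an unadjusted p under 0.05. Their median log2 differences were -0.11, -0.02 and -0.26. Among 9 astrocyte markers Sox9, a glial transcription factor, was lower in hippocampus, with 5 and 4 windows against 9 and 7 in frontal cortex (log2 difference -0.94, SE 0.20, adjusted p = 0.00294). In the oligodendrocyte list 1 of 15 was lower in hippocampus (Mbp), and in the endothelial and mural list 1 of 13 (Acta2), and both lost the call without frontal cortex of animal 3 (adjusted p = 0.308 and 0.323), hippocampus of animal 2 (0.069 and 0.0787) or hippocampus of animal 3 (0.102 and 0.201).

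**Figure D5:**
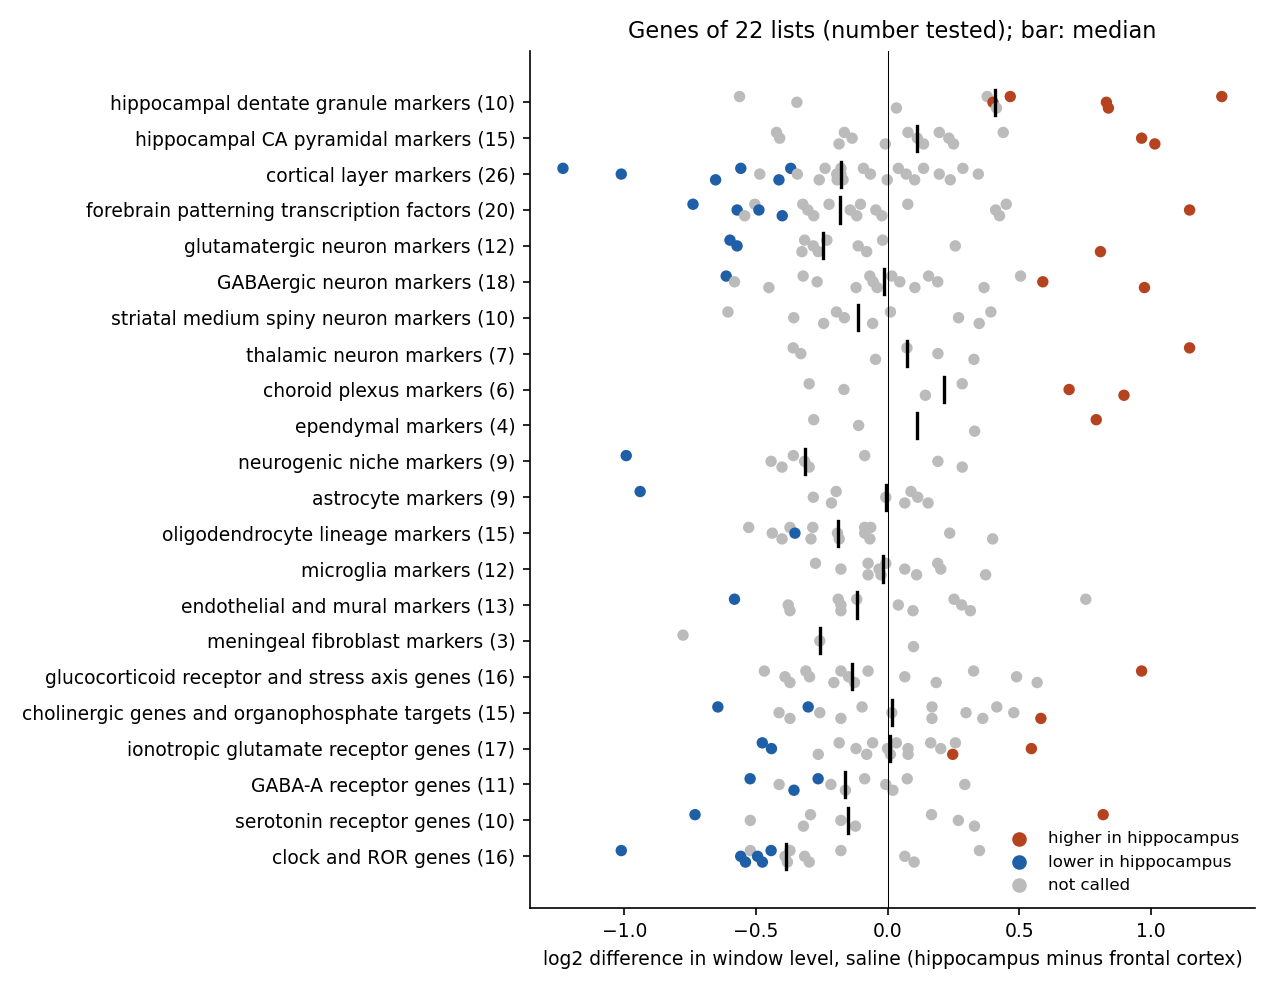
Log2 difference in windows with a peak (hippocampus minus frontal cortex, saline) for every tested gene of 22 lists, with the number tested in brackets and the median as a bar. Red genes were higher and blue genes lower in hippocampus, such as 5 of 10 granule cell markers and 6 of 16 clock and ROR genes. Over all genes tested, 3.44% were higher and 5.62% lower.

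Counts for stress-axis and receptor genes are again set against 3.44% higher and 5.62% lower over all genes. Of 16 genes of the glucocorticoid and stress axis only Nr3c2 was called (median -0.14). Of 15 cholinergic genes and organophosphate targets 1 was higher in hippocampus and 2 were lower (median 0.02). Chrna7, the alpha 7 nicotinic receptor, had 21 and 22 windows in hippocampus and 13 and 12 in frontal cortex (log2 difference 0.58, SE 0.13, adjusted p = 0.00459), but an adjusted p of 0.139 without hippocampus of animal 3. Chrm2, the muscarinic receptor M2, had 19 and 11 in hippocampus and 24 and 17 in frontal cortex (log2 difference -0.64, adjusted p = 0.00837), and Chrm3 was also lower (-0.30, adjusted p = 0.0304). Chrm2 had an adjusted p of 0.192 without hippocampus of animal 3 and 0.0711 without frontal cortex of animal 2, and Chrm3 0.441 without frontal cortex of animal 3. Of 17 ionotropic glutamate receptor genes 2 were higher and 2 lower (median 0.01), of which the kainate subunit Grik2 kept its call whichever single library was left out. Grik2 had 76 and 76 windows in hippocampus and 50 and 42 in frontal cortex (log2 difference 0.55, SE 0.09, adjusted p = 0.00028). Of 11 GABA-A receptor genes 0 were higher and 3 lower (median -0.16). Gabrb2 had 45 and 37 in hippocampus and 54 and 50 in frontal cortex (log2 difference -0.52, SE 0.09, adjusted p = 0.000341), a call lost without scaling. Of 10 serotonin receptor genes Htr5b was higher and Htr2a lower (0.82 and -0.73), and neither passed without hippocampus of animal 3 (adjusted p = 0.166 and 0.582) or frontal cortex of animal 2 (0.0659 and 0.142). In LPS animals Htr5b had a log2 difference of 0.15 (adjusted p = 0.159) and was higher in hippocampus in 5 of 9 animals, and Htr2a had -0.74.

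Clock and ROR genes had the lowest median of the 22 lists, -0.39 against -0.09 over all genes. Of 16, 6 were lower in hippocampus and 0 higher, against 5.62% and 3.44% over all genes. Rora, a nuclear receptor that drives clock gene transcription, had 117 and 91 windows in hippocampus and 136 and 133 in frontal cortex (log2 difference -0.56, SE 0.08, adjusted p = 3.2e-05). At Rora 17 windows were open in hippocampus alone and 38 in frontal cortex alone. Npas2, the forebrain partner of the core clock factor Bmal1, had 45 and 40 in hippocampus and 55 and 51 in frontal cortex (log2 difference -0.49, adjusted p = 0.000341), a call lost without scaling and with the 150000 strongest peaks. Arntl, which encodes Bmal1 itself, was lower (-0.44, adjusted p = 0.00576), but not without hippocampus or frontal cortex of animal 3 (adjusted p = 0.0751 and 0.105). The others were Rorb, described above, Nr1d2 and Cry1. Arntl, Nr1d2 and Cry1 also lost the call without scaling (limma, adjusted p = 0.255, 0.262 and 0.38), where 2 of the 6 calls were kept. Only Npas2, Rora and Rorb kept the call whichever single library was left out. Nr1d2 had an adjusted p of 0.299 without hippocampus of animal 2 and 0.356 without frontal cortex of animal 3, and Cry1 missed the threshold with the replicate block (adjusted p = 0.0712). The summed level of the list was 117 and 119 windows per 100000 in hippocampus and 153 and 166 in frontal cortex. In the LPS animals, collected at 6, 12 and 24 h, 10 of the 16 were lower in hippocampus and 1 higher. There the shares over all genes were 28.9% lower and 13.5% higher.

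Whether the tissue difference depended on the challenge was tested on the differences within animals, 2 saline animals against 9 LPS animals. Of 12445 genes 0 (0%) were called (limma, Benjamini-Hochberg, lowest adjusted p = 0.505) and 635 had an unadjusted p under 0.05. Among the genes named, 7 had an unadjusted p under 0.05, all with the larger difference in saline animals, whose values were known when most of them were named. The lowest were Lrrc42 (log2 differences 1.75 in saline and 0.71 in LPS animals, unadjusted p = 0.000398), Htr5b (0.82 and 0.15, unadjusted p = 0.00374) and Prox1 (1.27 and 0.73, unadjusted p = 0.0204), each with an adjusted p of 0.962. The others were Slc17a6, Slc32a1, Slc17a7 and Acta2. No gene can thus be called particular to saline animals, and a test with 2 animals on one side is not fit to find small changes.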

How the data were processed

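OMNI-ATAC-seq peak lists of 22 libraries (11 mice, hippocampus and frontal cortex of each) were used, 1 list per library. MACS2 2.2.7.1, Bowtie2 2.4.4, FastQC 0.11.9 and Trim Galore 0.6.7 are named, with build GRCm38, per the submitters' processing notes. A transposase offset is not stated in the labels. The authors' lists give each peak a fold enrichment over background, the -log10 p and -log10 q of the peak caller, and a score that is a whole-number form of the -log10 p. Peaks were ranked by -log10 p with ties by fold, and the q value set 1 alternative. Read depth is unknown from these lists, so no counting interval is given. Per the design text, 1 further baseline animal was left out for low depth. The authors' tables comparing LPS with saline were not used here.

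Peaks of all libraries were merged into 563375 windows of 501 bases. Windows in and within 10 kb of each protein-coding gene (RefSeq table, GRCm38.p6) were counted. Genes with a mean of at least 5 windows were fitted with limma 3.58.1 (R 4.3.3, intensity trend) on log2((windows + 0.5) per 100000 windows). The fit had 1 mean per tissue, challenge and time over all 22 libraries, which share the estimate of spread. P-values carry the Benjamini-Hochberg adjustment over all genes at 0.05. Gene differences in LPS animals came from a second limma fit, on the differences within the 11 animals, with saline set against LPS. Windows and starts present in 2 to 16 LPS libraries were tested with Fisher's exact test. Replicates are different animals by the labels, and the tissues are paired by animal; same-animal deviations correlated at 0.164 in saline animals and between -0.034 and 0.11 in LPS animals. The scripts were tested on simulated data. Python 3.11.15 and scipy 1.17.1 were used.

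The members and the 22 gene lists were chosen with earlier results of these data known. Named genes are the 10 largest called differences per direction without overlap of the tissues. Called list members, up to 4 per list by p, and those whose call an alternative ends were added. Wfs1, C1ql2, Tbr1, Fezf2, Ttr, Otx2, Lsamp, Macrod2, Rbfox1, Ryr3, Ptprd and the named starts were chosen after their values were seen. Start sites of chromosome 18 were not used here, and a few genes are not reported here. Alternatives changed the peaks used, the overlap, scaling, pseudocount, filter, gene assignment, the libraries and the block.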

Additional observations from a re-analysis of the deposited data

Results flagged for a closer look

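Among 128 groups of 9 LPS libraries, for the genes named and the window classes, 5 had 1 library set apart from the others by Dixon's criterion, where chance alone flags about 1 group in 20. All values are windows with a peak per 100000 windows of the library, and none of these libraries is a saline one. Deup1, a gene of centriole assembly in multiciliated cells, was highest in frontal cortex of LPS animal 1 at 24 h with 2.964, against 0.818 to 1.63 in the other frontal cortex libraries. In hippocampus of the same animal Itgad, an integrin gene of myeloid cells, was highest with 2.495, against 0.877 to 1.609 in the others. Mbp, the myelin basic protein gene, was lowest there with 13.545, against 15.09 to 16.256. Acta2, the smooth muscle actin gene, was highest in frontal cortex of animal 3 at 6 h with 3.865, against 2.858 to 3.358. Arntl was lowest in frontal cortex of animal 4 at 24 h with 13.574, against 15.543 to 17.045.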

How the results depend on the processing

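With 2 animals, the presence of a peak rests on a caller's limit, and the depth of the libraries is unknown. Windows open in hippocampus alone numbered 10236 with the 50000 strongest peaks of each library and 27795 with the 150000 strongest, and frontal cortex windows 11330 with the 50000 strongest and 15749 with no peak of the other tissue within 1 kb (added after seeing the data). With 1 animal left out they ranged from 95164 to 106994 and from 68641 to 69087. Genes higher in hippocampus numbered 89 (50000 strongest), 685 (no filter), 202 (mean of 20 windows), 742 (nearest gene) and 226 (4 saline libraries alone), and 61 to 416 with libraries or animals left out. Genes lower numbered 151 (50000 strongest), 44 (no scaling), 345 (mean of 20 windows) and 232 (4 saline libraries alone), and 46 to 664 with libraries or animals left out. A fit with 1 library left in a tissue assumes that it varies like the LPS libraries. Windows called in the LPS animals numbered 7057 and 7488 (50000 strongest), and 19541 for hippocampus (150000 strongest). Starts ranged from 287 to 433 for hippocampus alone and from 227 to 355 for frontal cortex alone with 1 animal left out. Hippocampus and frontal cortex starts numbered 81 and 145 (150000 strongest), and 91 and 139 (50000 strongest). All these counts of starts were added after seeing the data. The difference of Mef2c turned to 0.4036 with the 50000 strongest peaks and that of Gabrg3 to 0.0198 with -log10 q of at least 5. With the 50000 strongest peaks, 34 of 125 higher and 50 of 248 lower main calls tested there were kept. The sign turned in 22 and 57, of which 0 and 5 were called in the other direction. The causes were not tested, apart from fewer genes tested under stricter filters. The dependence on challenge gave 0 calls under each of 6 alternatives.

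With the animal as a replicate block, 460 genes were higher and 726 lower, and 411 and 650 of the main calls were kept. Of 48 called list genes 44 kept the call, and Slc32a1, Emx1 and Cry1 were among those that did not. In the window look-up the block (sign test) gave 13815 and 7662. Of 61 named genes 18 kept the call without animal 3, 35 without scaling and 61 with a pseudocount of 2.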
